A study of Mesocricetus auratus with 8 samples.

Results

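Satellite cells (SCs), the stem cells of skeletal muscle, commit to the muscle lineage under a small set of DNA-binding transcription factors, and the mRNA levels of 7 of these genes were compared in hamster SCs before and after cold exposure. The genes were the myogenic regulatory factors (MRFs) Myf5, Myod1, Myog and Myf6 and the myocyte enhancer factor 2 (MEF2) genes Mef2a, Mef2c and Mef2d. They were found by gene symbol in a table of 17590 genes with values, and all 7 had values and passed the filter on low counts that left 12506 genes for testing. Mef2b was not analysed here.

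The primary SCs came from hindlimb muscles of wild-type male Syrian hamsters (Mesocricetus auratus, stock Slc:Syrian) and were enriched by preplating and serial replating, which removes fibroblasts. Every culture was grown on Matrigel for 48 h at 37°C in serum-rich growth medium with basic fibroblast growth factor, and then for 24 h at 37°C in the same medium buffered with HEPES. Control libraries (n = 4) were made at that point, and cold libraries (n = 4) after a further 24 h at 4°C. Cold libraries were therefore collected later, with no 37°C library of the same age analysed here, so cold and added time cannot be told apart. The paper calls the 4 libraries of a group biological replicates. The sources used here do not say whether the cultures of one group came from separate hamsters. P-values weigh a difference against the spread between these libraries. In comparisons within a replicate number, differences between numbers are first removed from that spread. The treatment labels of control replicates 1 to 4 give 3, 4, 5 and 6 days of culture, whereas their titles place all 4 on day 3.

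MRFs are basic helix-loop-helix (bHLH) proteins that bind DNA as dimers with E-proteins. Myf5 and Myod1 set the myoblast fate, Myog (myogenin) drives the exit into differentiation, and Myf6 (MRF4) acts mainly in differentiating and mature muscle. MEF2 proteins bind AT-rich sites, cooperate with MRFs at the promoters of contractile genes, and have their activity held back by class IIa histone deacetylases. Mef2c is the MEF2 gene that MRFs switch on as myoblasts differentiate, while Mef2a and Mef2d are transcribed in many tissues.

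The depth was 16530747 to 18533801 expected read counts per library. An expected count is an estimated number of reads, and the counts of all 7 genes were whole in all 8 libraries. Myf6 had the fewest reads, with 89 in cold replicate 4, for which the exact 95% Poisson interval of 71.5 to 109.5 covers counting error only, and every count of the other 6 genes was at least 487. The first principal component, 54.5% of the variance, set replicates 3 and 4 of each group apart from replicates 1 and 2, and control and cold libraries of one number deviated together. Libraries of different numbers within replicates 1 and 2 did so almost as strongly. The pairing by number is inferred from these data. Results are therefore given from edgeR's quasi-likelihood test without and with the replicate number as a block, that is, as a comparison within each number.

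Markers of SCs and myoblasts summed to between 1723 and 2024 TPM (a level corrected for transcript length and library depth) in control and between 1660 and 1924 TPM in cold libraries, with 13 of 14 markers at 1 TPM or more in some library. Pax7, the defining SC factor, lay between 10.8 and 16.1 TPM. Fibroblast markers were also present, with 10 of the 10 listed genes that had values at 1 TPM or more in some library, among them Thy1, the largest, at 480 to 662 TPM, Col1a1 at 129 to 192 TPM and Pdgfra at 7.21 to 14.9 TPM. Their sum was 1230 to 1770 TPM in control and 1217 to 1720 TPM in cold libraries. By staining, the paper found nearly all cells isolated this way from hamster muscle positive for Pax7 or MyoD protein. Ptprc and Adgre1, which mark leukocytes and macrophages, stayed at or below 0.03 TPM, although Csf1r of the same list reached 4.5 TPM. Mainly through Cd68 and Cd14, that list summed to 41.2 to 97.4 TPM in control and 44.1 to 104.8 TPM in cold libraries. Endothelial, adipocyte and Schwann cell lists each summed to at most 4.33 TPM. Acta2 made up most of the smooth muscle list, which summed to 1138 to 1965 TPM in control and 974 to 1275 TPM in cold libraries. The part of these cell types in the results was not tested, and in bulk RNA fewer cells of a type cannot be told apart from less RNA per cell.

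Mef2c, Myf6 and Myog had the largest differences between groups, and all of them were lower in the cold, by log2 fold changes of −1.49, −0.86 and −0.74. Mef2a, Mef2d and Myod1 differed by between −0.19 and −0.14, and Myf5 by 0.07. In the fit without the block, 0 of the 7 genes were called lower at a log2 fold change of −1 or below and an adjusted p under 0.05, against 0.0400% of all genes tested, and 0 were called higher, against 0%. At an unadjusted p under 0.05 that fit held 2 of the 7, Mef2c and Myf6, as lower in the cold, against 4.13% of all genes tested. DESeq2 called 1 of the 7 by the thresholds above, Mef2c, against 0.472% of its genes. With the block, Mef2c alone passed the fold threshold and an adjusted p under 0.05, which 0.808% of genes did. Without the fold threshold the block fit called 6 of the 7 lower, against 4.07% of genes, and 0 higher, against 1.26% of genes. In limma with the same block 2 of these 6 calls, Myog and Mef2c, were kept (limma adjusted p = 0.00665 and 0.00875), against 1.40% of its genes.

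**Figure D1:**
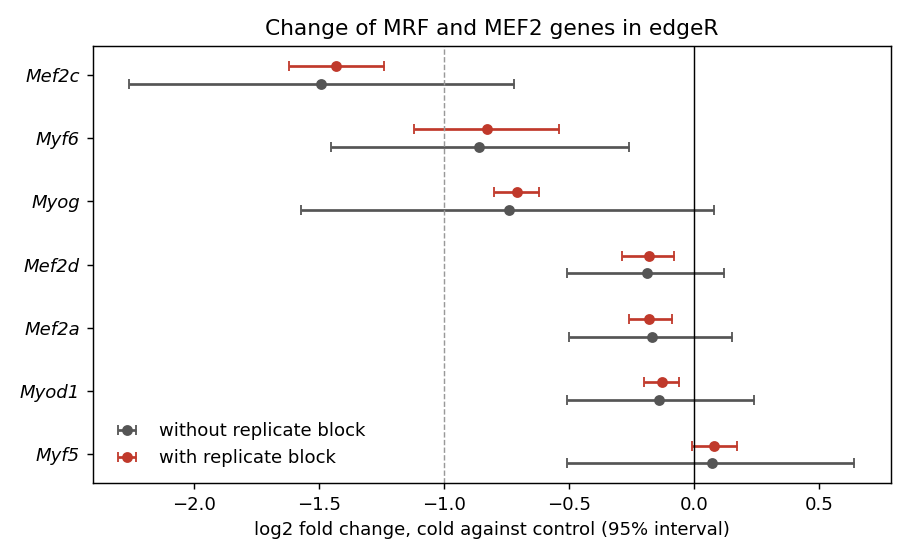
Log2 fold change of each gene, cold against control, with its 95% interval from edgeR, without (grey) and with (red) the replicate number as a block, and a dashed line at −1. With the block, the intervals of 6 genes lay below 0 and that of Myf5, −0.01 to 0.17, crossed it.

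Myf5, a determination factor, had no detected change in either fit. Its control values were 99.9, 102.9, 181.6 and 202.1 TPM in replicates 1 to 4, and its cold values were 111.0, 120.8, 179.5 and 205.5 TPM. The groups overlapped throughout, and cold values were higher than the control value of the same number in replicates 1, 2 and 4. On the log2 scale the difference was 0.07 ± 0.26 (standard error; edgeR adjusted p = 0.999) without and 0.08 ± 0.044 (edgeR adjusted p = 0.361) with the block. The interval with the block, −0.01 to 0.17, leaves room for a small rise and for almost no fall.

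Myod1 mRNA was at a high level in every library, and its cold values kept close to the control values. Control replicates 1 to 4 held 665.7, 693.5, 633.5 and 463.3 TPM, and cold replicates 1 to 4 held 603.8, 647.4, 592.6 and 424.4 TPM. The groups overlapped, since replicate 4 was the lowest library in both, but each cold library lay at 90.7% to 93.5% of the control library of its number. With the block this narrow band amounted to a fall of 8.85% (log2 fold change −0.13 ± 0.033, standard error; edgeR adjusted p = 0.0200). Without the block the standard error was 0.17 and the edgeR adjusted p was 0.999, and the call was also lost in limma with the block (adjusted p = 0.359) and with replicates 3 and 4 only (edgeR adjusted p = 0.997).

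Myog was the most abundant of the 7 in control libraries, at 738 ± 316 TPM (SD, n = 4), and 192 of the 12506 tested genes had a higher control mean. Its control values were 1007.6, 1016.4, 449.3 and 479.8 TPM in replicates 1 to 4, against 564.0, 627.9, 313.7 and 291.8 TPM in the cold. Cold replicates 1 and 2 exceeded control replicates 3 and 4, so the groups overlapped (exact two-sided permutation test, p = 0.200). Within each number, however, Myog fell to 56.0%, 61.8%, 69.8% and 60.8% of the control value. The block fit gave a log2 fold change of −0.71 (95% interval −0.80 to −0.62, edgeR adjusted p = 2.96e-09), whereas without the block the interval, −1.57 to 0.08, crossed 0 (edgeR adjusted p = 0.824).

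Myf6 was scarce, with 20.5, 19.0, 11.02 and 9.96 TPM in control replicates 1 to 4 and 7.95, 10.0, 8.84 and 7.23 TPM in cold replicates 1 to 4. A single pair of libraries overlapped, cold replicate 2 and control replicate 4 (exact two-sided permutation test, p = 0.0571). The cold libraries lay close together, at 8.51 ± 1.21 TPM against 15.1 ± 5.40 TPM in control (SD, n = 4 each), and the cold value was 38.7%, 52.9%, 80.2% and 72.6% of the control value in replicates 1 to 4. With the block Myf6 fell by 0.83 on the log2 scale (standard error 0.14, edgeR adjusted p = 0.000614), while the adjusted p was 0.462 in edgeR without it and 0.112 in limma with it. With replicates 3 and 4 only, the log2 fold change of Myf6 was −0.37 (edgeR adjusted p = 0.997). The 4 paired log2 ratios of Myf6 had an SD of 0.48, the widest of the 7 genes, beside 0.02 for Myod1 and 0.13 for Myog.

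**Figure D2:**
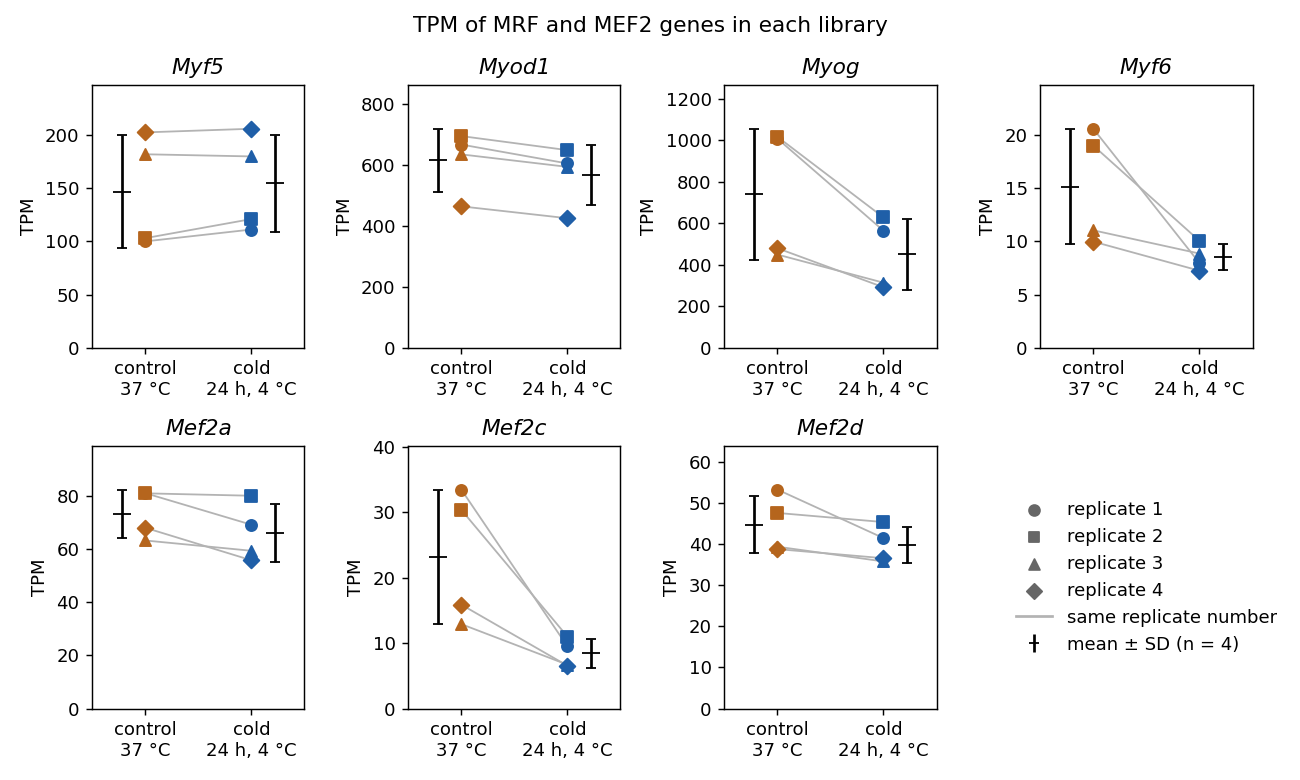
TPM of each gene in the 4 control and 4 cold libraries, with symbols for replicate numbers, grey lines joining libraries of one number and bars for mean ± SD (n = 4). Mef2c is the gene whose groups do not overlap (lowest control value 12.9 TPM, highest cold value 11.01 TPM), and Myf5 is the gene with rising lines in replicates 1, 2 and 4.

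Among the MEF2 genes, Mef2c changed most and was the member whose groups did not overlap. Control replicates 1 to 4 held 33.5, 30.4, 12.9 and 15.9 TPM, and cold replicates 1 to 4 held 9.50, 11.01, 6.71 and 6.55 TPM (exact two-sided permutation test, p = 0.0286, the smallest that 4 against 4 libraries allow). Non-overlap with lower cold values was found in 2.41% of the genes tested. The cold value was 28.4%, 36.2%, 52.0% and 41.2% of the control value of the same number. Its log2 fold change was −1.49 without the block (95% interval −2.26 to −0.72, edgeR adjusted p = 0.224) and −1.43 with it (−1.62 to −1.24, edgeR adjusted p = 3.43e-09). Of the 12506 genes, 50 had a lower log2 fold change than Mef2c without the block, 152 a lower one than Myf6 and 180 a lower one than Myog.

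Mef2a and Mef2d were more abundant and moved little. Mef2a held 80.9, 80.9, 63.2 and 67.9 TPM in control replicates 1 to 4 and 69.1, 80.0, 59.3 and 55.7 TPM in cold replicates 1 to 4. Mef2d held 53.2, 47.5, 39.3 and 38.8 TPM in control and 41.4, 45.3, 35.8 and 36.5 TPM in cold replicates 1 to 4. For each gene the groups overlapped, and the cold value was lower in 4 of 4 numbers, which was also true of 10.5% of the genes tested. With the block, Mef2a fell by 0.18 on the log2 scale (edgeR adjusted p = 0.0147) and Mef2d also by 0.18 (edgeR adjusted p = 0.0399), while without it the adjusted p-values were 0.999 and 0.962. In limma with the block neither passed (adjusted p = 0.358 for each gene). Reads were counted per gene, so alternative transcripts of the MEF2 genes, including muscle-specific exons, were not separated.

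Ratios between genes of one library do not depend on how libraries are scaled. Mef2c made up 20.0%, 19.1%, 11.2% and 13.0% of the summed TPM of Mef2a, Mef2c and Mef2d in control replicates 1 to 4, and 7.92%, 8.08%, 6.60% and 6.63% in cold replicates 1 to 4. The share was thus below every control value in each cold library, with means of 15.8% and 7.31% (difference −8.51 percentage points, exact two-sided permutation test, p = 0.0286). Mef2a and Mef2d made up the rest, and the mean share of Mef2a was 52.3% in control and 57.8% in cold libraries, with no test of its own. Relative to Myog, Mef2c was also lower in the cold, by 0.68 on the log2 scale, with all 4 cold ratios below all 4 control ratios (exact two-sided permutation test, p = 0.0286). This ratio was chosen after the values were seen.

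Among MRFs, Myog exceeded Myod1 in 3 of 4 control libraries, and Myod1 exceeded Myog in 4 of 4 cold libraries. The log2 ratio of Myog to Myod1 was 0.60, 0.55, −0.50 and 0.05 in control replicates 1 to 4 and −0.10, −0.04, −0.92 and −0.54 in cold replicates 1 to 4. In each of the 4 numbers the cold ratio was the lower one, by 0.58 on average (SD of the paired differences 0.11), but the groups overlapped (exact two-sided permutation test, p = 0.114). The log2 ratio of Myf6 to Myf5, a pair without a protein-coding gene between them in the RefSeq annotation of the hamster, was also lower in 4 of 4 numbers, with paired differences of −1.52, −1.15, −0.30 and −0.49 (exact two-sided permutation test between groups, p = 0.229). This ratio was also chosen after the values were seen.

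**Figure D3:**
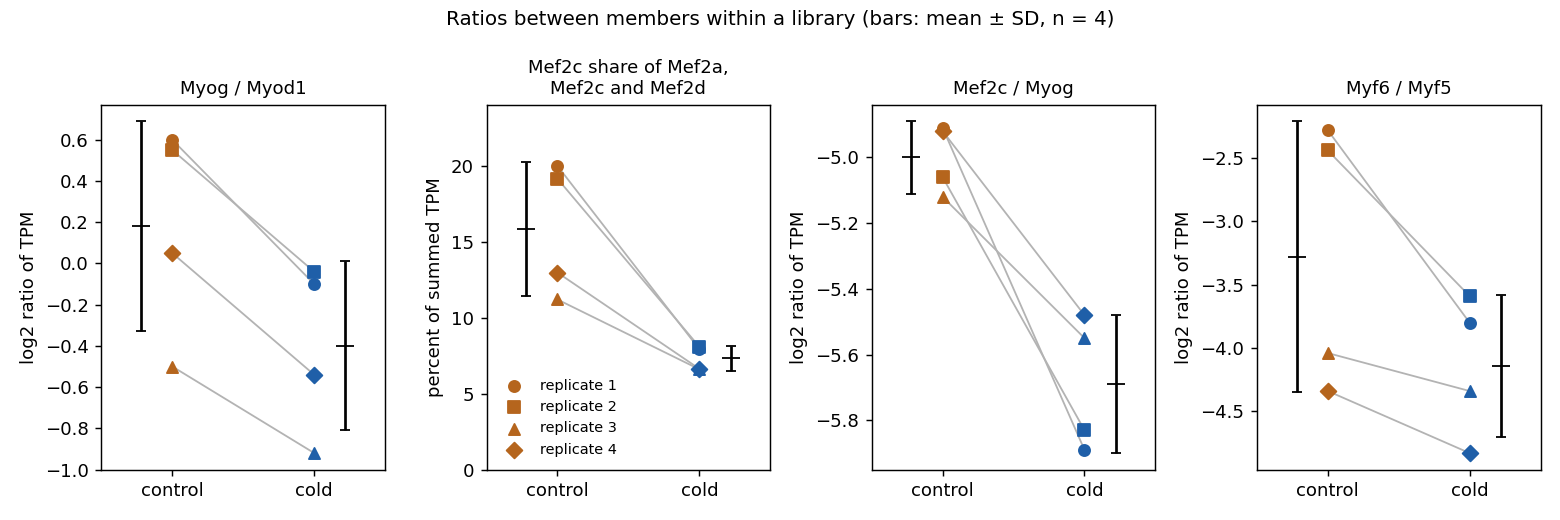
Ratios between genes within a library for 4 control and 4 cold libraries, as log2 ratios of TPM or, for Mef2c, as percent of the summed TPM of Mef2a, Mef2c and Mef2d, with grey lines joining libraries of one replicate number and bars for mean ± SD (n = 4). The vertical scales differ, and control and cold values do not overlap for the Mef2c share (11.2% or more against 8.08% or less) and for Mef2c to Myog.

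The order of levels in control libraries, by mean TPM, was Myog, Myod1, Myf5 (147 ± 52.9, SD, n = 4), Mef2a (73.2 ± 9.08), Mef2d (44.7 ± 6.95), Mef2c (23.2 ± 10.3) and Myf6 (15.1 ± 5.40). Neighbours in this order had ranges that did not overlap, except Myog with Myod1 and Mef2c with Myf6. In the cold the order was Myod1 (567 ± 98.0), Myog (449 ± 172), Myf5 (154 ± 45.7), Mef2a (66.0 ± 10.9), Mef2d (39.8 ± 4.48), Myf6 (8.51 ± 1.21) and Mef2c (8.44 ± 2.18). There Myf6 and Mef2c could not be told apart, each being the higher in 2 of 4 libraries, and Myod1 and Myog had overlapping ranges. Mef2c moved down from 5104 to 8149 genes with a higher mean TPM, and Myf6 from 6444 to 8126.

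The replicate numbers themselves parted the genes into opposite patterns, a description with no test. In the control group 6 of the 7 genes, all but Myf5, had higher TPM in replicates 1 and 2 than in replicates 3 and 4, and in the cold group this held for 5, all but Myf5 and Myf6. Myf5 ran the other way in both groups, with at most 120.8 TPM in replicates 1 and 2 and at least 179.5 TPM in replicates 3 and 4. Beside this, the fibroblast marker sum was 1230 and 1256 TPM in control replicates 1 and 2, and 1495 and 1770 TPM in control replicates 3 and 4. In the cold group it was 1310, 1217, 1514 and 1720 TPM in replicates 1 to 4, and the difference between groups did not pass the test (exact two-sided permutation test, p = 0.971). The smooth muscle sum ran the opposite way, with 1965 and 1794 TPM in control replicates 1 and 2 against 1138 and 1264 TPM in control replicates 3 and 4, and with 1197, 1275, 974 and 1002 TPM in cold replicates 1 to 4. The sum of SC and myoblast markers was also lower in replicates 3 and 4, at most 1761 TPM, than in replicates 1 and 2, at least 1817 TPM, over both groups, while the leukocyte and endothelial sums were higher in replicates 3 and 4 of each group. Between groups, the smooth muscle sum and the SC and myoblast sum were lower in the cold in 4 of 4 numbers. So were 6 of the 7 genes and 10.5% of all genes tested. Neither sum passed the test (exact two-sided permutation tests, p = 0.143 and p = 0.286). Des was the largest part of the SC and myoblast sum and was lower in 2 of 4 numbers. On the same list Cdh15 was lower in 4 of 4 numbers, Fgfr4 in 3, Pax7 in 1 and Met in 0. Des, Cdh15, Fgfr4 and Met are also counted below among genes described as MRF targets. The part of these cell types in the patterns was not tested.

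Partners and regulators of these factors were described by list. Over all genes tested, 47.1% had a log2 fold change below 0, and the median was 0.007. The E-protein genes Tcf3, Tcf4 and Tcf12, which encode the dimer partners of MRFs, had log2 fold changes of 0.12, 0.01 and 0.08, and 0 of 3 passed an adjusted p of 0.05 with the block. Mean TPM of Tcf3 was 66.7 ± 4.71 for control against 73.3 ± 2.82 for cold SCs (SD, n = 4 each). Counts of Tcf12 were not whole in every library, which leaves its level uncertain.

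Of 18 genes listed as inhibitors of MRF activity, 12 had a log2 fold change below 0, with a median of −0.08, and 1 fell with the block, against 4.07% of all genes tested. That gene was Hes6, with 138.5 ± 44.9 against 108.5 ± 22.6 TPM (SD, n = 4 each; log2 fold change with the block −0.34, edgeR adjusted p = 0.00112, and 0.945 without the block), and it is known to oppose Hes1 and favour differentiation rather than inhibit MRFs. Hes1, a Notch target, had a log2 fold change of −0.26 and Mdfi, which holds MRFs in the cytoplasm, one of −0.22, and neither passed the test. Among the Id genes, whose products bind E-proteins and keep them from MRFs, Id2 had 575 against 640 TPM (log2 fold change with the block 0.16, edgeR adjusted p = 0.0774), and was singled out after its value was seen.

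Of 22 upstream regulators of the myogenic lineage, 19 were tested, 8 had a log2 fold change below 0, the median was 0.02, and 0 passed with the block. For Pax7 the means were 12.7 ± 2.17 and, after cold, 13.5 ± 1.70 TPM (SD, n = 4 each). Eya1, a cofactor of homeodomain factors such as Six2, had a log2 fold change of 0.25 (edgeR adjusted p with the block 0.0623), Six2 one of 0.19 and Pitx1 one of −0.16. Among 23 tested coactivators of MRFs and MEF2, 10 were below 0, the median was 0.02 and 0 passed with the block. Mamstr, a MEF2 coactivator, had a log2 fold change of −0.17, while Maml1 and Map2k5, which encodes a kinase upstream of MEF2, each had one of 0.15.

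Of 16 corepressor genes, 3 had a log2 fold change below 0, with a median of 0.04. With the block 1 fell and 1 rose, where 4.07% and 1.26% of all genes tested did, so these counts are not read as a result about corepressors. Hdac9, a class IIa deacetylase that binds MEF2 and is also described as a MEF2 target, had 1.71 ± 0.574 against 0.812 ± 0.195 TPM (SD, n = 4 each; log2 fold change with the block −0.99, edgeR adjusted p = 0.000541, and 0.344 without the block). Ezh2, the Polycomb methyltransferase that silences muscle genes in myoblasts, was higher in the cold, at 68.7 ± 4.58 against 80.3 ± 2.67 TPM (log2 fold change with the block 0.21, edgeR adjusted p = 0.00385). Without the block the edgeR adjusted p of Ezh2 was 0.267, and neither DESeq2 nor limma with the block called any gene of the lists higher. Hdac7, another class IIa deacetylase, had a log2 fold change of 0.15 and did not pass.

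The genes described as targets of these factors were mostly lower in the cold. Of 38 tested genes described as MRF targets, 36 had a log2 fold change below 0, the median was −0.66, and 31 fell and 1 rose with the block, against 4.07% and 1.26% of all genes tested. Of 24 tested genes described as MEF2 targets, 20 were below 0, the median was −0.81, and 19 fell and 0 rose with the block. These lists were written with earlier results of the same libraries known, so their direction is not independent evidence. Without the block 1 gene of each list was lower at an adjusted p under 0.05, against 0.0720% of all genes tested.

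Myl4, an embryonic and atrial myosin light chain gene, had the largest change of the MRF targets, from 387 ± 140 to 66.1 ± 16.2 TPM (SD, n = 4 each; log2 fold change without the block −2.57, edgeR adjusted p = 0.0301). Casq2, which encodes the calcium-storage protein calsequestrin 2, followed with 16.1 ± 8.89 against 3.16 ± 1.01 TPM. Mybph, a myosin-binding protein gene, had 40.9 ± 27.2 against 8.38 ± 4.99 TPM. Each of these genes was lower in 4 of 4 numbers, and with the block the log2 fold changes of Casq2 and Mybph were −2.34 and −2.30 (edgeR adjusted p = 1.99e-10 and 7.16e-12). Without the block neither Casq2 nor Mybph passed (edgeR adjusted p = 0.126 and 0.306).

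Among MEF2 targets, Smpx, a small muscle protein gene, had the largest change, from 5.66 ± 2.03 to 1.03 ± 0.448 TPM (SD, n = 4 each). Hrc, which encodes a calcium-binding protein of the sarcoplasmic reticulum, went from 2.58 ± 1.10 to 0.535 ± 0.0557 TPM, and Mstn, the gene for myostatin, from 13.7 ± 3.08 to 4.11 ± 1.39 TPM. With the block the log2 fold changes were −2.45, −2.27 and −1.76 for Smpx, Hrc and Mstn, with edgeR adjusted p-values of 1.25e-06, 3.19e-07 and 9.07e-07. Without the block each of the 3 genes had an edgeR adjusted p of 0.0560.

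**Figure D4:**
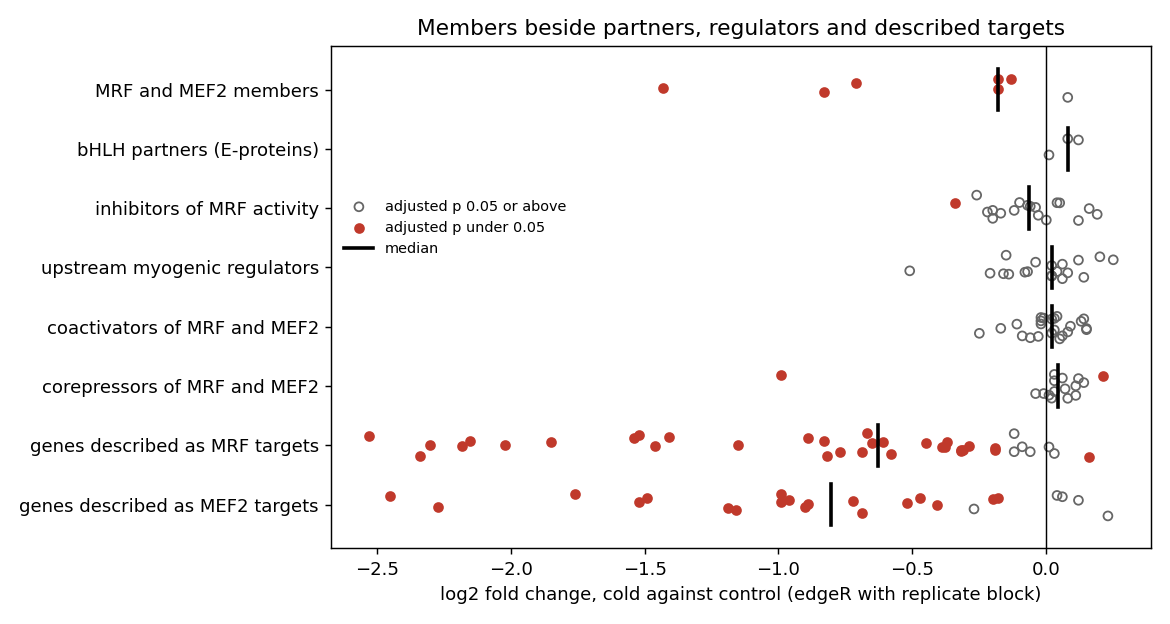
Log2 fold change of each tested gene, cold against control, from edgeR with the replicate block, by list, with filled points for an adjusted p under 0.05 and bars for list medians. Partners, inhibitors, upstream regulators, coactivators and corepressors centre near 0, and the described targets of MRFs and MEF2 lie mostly below it, with medians of −0.63 and −0.80.

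The genes with the most similar pattern were found among 10486 genes with a mean of at least 1 TPM, as those with the smallest root mean square difference from the member in log2(TPM + 1), each gene centred on its own mean, over the 8 libraries. For Myog these were Myo18b (0.049), Pdlim3 (0.081) and Myh1 (0.116), small beside the root mean square of Myog itself, 0.63. Myo18b and Myh1 encode myosin heavy chains and Pdlim3 a Z-disc protein. For Mef2c they were Ldb3 (0.110), Trim54 (0.117) and Actn2 (0.122), beside 0.78 for Mef2c itself, and Ldb3 and Actn2 encode Z-disc proteins. The pseudocount of 1 hides part of the change of scarce genes such as Trim54, with 2.58 against 0.340 TPM.

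Myf6 was most similar to Cdkn1c (0.098), a cell cycle inhibitor gene, then Obsl1 (0.104) and Itm2a (0.117), beside 0.48 for Myf6 itself. Genes closest to Myf5, beside 0.42 for Myf5 itself, were Slc16a10 (0.065), Ddah1 (0.072) and Rai14 (0.074). Myod1, Mef2a and Mef2d varied little, at 0.24, 0.19 and 0.18, so that the similarity carries less. Myod1 was closest to Samd11, Fbxo10 and Tmem64, Mef2a to Rnf217, Oaz2 and Pawr, and Mef2d to Rapgefl1, Leprot and Gtf2b.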

How the data were processed

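PolyA RNA was measured in 4 control and 4 cold libraries. The authors deposited one table of estimated counts (expected counts, not normalized) and TPM, beside a signal of normalized counts that was not used. The submitters' processing notes name HISAT and HISAT2, and the counting program and genome build are not given in the sources used here. RefSeq served for names and gene order only, and all 17590 identifiers matched.

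Rounded counts were fitted over all genes with edgeR 4.0.16 in R 4.3.3 (filterByExpr, TMM, quasi-likelihood test, Benjamini-Hochberg adjustment), and calls of members needed an adjusted p under 0.05 and, unless stated otherwise, an absolute log2 fold change of 1 or more, while genes of the lists were counted at an adjusted p under 0.05 alone. Standard errors came from the log2 fold change and its F statistic. The edgeR fits without and with the block were tested on simulated counts with known changes. For the fit without the block these counts held no differences between replicate numbers, unlike the data, so that test does not cover its behaviour here. TPM and ratios were compared by exact two-sided permutation over 70 arrangements (smallest p 0.0286).

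The labels number the replicates without saying what a number marks. Deviations from the group mean correlated across genes at 0.61 to 0.66 between libraries of one number, so the numbers were taken to pair the libraries. Between different numbers the correlations were 0.43 to 0.59 within replicates 1 and 2 or 3 and 4, and −0.61 to −0.55 otherwise. Within replicates 1 and 2 the margin was small, at 0.61 and 0.62 for one number against 0.59 and 0.57 across numbers. Values with the block rest on this pairing, which was inferred from the same libraries.

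Members, gene lists and tests were chosen with earlier results of these data known. Named genes are all members, the 3 genes of each list with the largest absolute log2 fold change and a mean of at least 1 TPM, Pax7, the E-protein genes and the 3 genes most like each member. Id2, Pgam2, Met and the described targets that did not pass with the block fall outside this rule and were chosen after their values were seen. Alternatives were DESeq2 1.42.0, RLE factors, library totals, other count filters, the replicate block, limma 3.58.1 on log2 TPM, subsets of libraries and no fold threshold.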

Additional observations from a re-analysis of the deposited data

How the results depend on the processing

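The number of members called lower was 0 without the block and with RLE factors, library totals, other filters, limma without the block, no fold threshold alone, or any single library left out. It was 1 (Mef2c) with the replicate block, DESeq2, limma with the block or replicates 3 and 4 only, 2 with replicates 1 and 2 only, and, without a fold threshold, 6 with the block, 1 with DESeq2, 6 with replicates 1 and 2 and 2 with replicates 3 and 4 (settings of DESeq2 and the subsets without the fold threshold were added after seeing the data). Of all genes, 1.41% were called lower with replicates 1 and 2, 0.214% with replicates 3 and 4 and 0.312% by limma with the block, and, without a fold threshold, 6.85% with replicates 1 and 2, 0.381% with replicates 3 and 4 and 0.924% by DESeq2. In no setting was a member called higher.

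Single genes passed an adjusted p of 0.05 as follows. Under the replicate block the log2 fold changes were −0.13 (Myod1), −0.71 (Myog), −0.83 (Myf6), −0.18 (Mef2a), −1.43 (Mef2c) and −0.18 (Mef2d). With replicates 1 and 2 only they were −0.18, −0.82, −1.19, −0.18, −1.70 and −0.28 in the same order, and with replicates 3 and 4 only −0.61 (Myog) and −1.10 (Mef2c). DESeq2 passed Mef2c at −1.49, and limma with the block Myog at −0.69 and Mef2c at −1.28, but not Myf6, Myod1, Mef2a or Mef2d. Leaving out 1 library gave ranges of −0.27 to −0.02 (Myod1), −0.97 to −0.54 (Myog), −1.03 to −0.66 (Myf6), −0.29 to −0.10 (Mef2a), −1.70 to −1.25 (Mef2c), −0.28 to −0.09 (Mef2d) and, with a change of sign, −0.10 to 0.25 (Myf5). None of these fits passed a member, and Mef2c came nearest without control replicate 3 (edgeR adjusted p = 0.0658). The cause of these differences was not tested.

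For the share of Mef2c (−8.51 percentage points) and the ratio of Mef2c to Myog (−0.68), an exact sign-flip test over 4 pairs cannot fall below p = 0.125. With replicates 1 and 2 only, the differences were −11.55 points and −0.87, and with replicates 3 and 4 only −5.46 points and −0.49. With 1 library left out they ranged from −10.1 to −7.12 and from −0.75 to −0.62 (exact permutation p = 0.0571, the smallest possible for 3 against 4). The ratio of Myog to Myod1 ranged from −0.80 to −0.40, and that of Myf6 to Myf5 from −1.22 to −0.53 (−1.34 with replicates 1 and 2 only, −0.39 with replicates 3 and 4 only).

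At an adjusted p under 0.05 with no fold threshold, genes called lower among those of the 7 lists (139 tested in the fit without the block) numbered 2 without the block (0.0720% of all genes), 50 with the block (4.07%), 25 with DESeq2 (0.924%), 7 without the count filter (0.150%), 1 with limma at a pseudocount of 0.1 (0.0218%), 35 with limma and the block (1.40%), 59 with replicates 1 and 2 (6.85%), 17 with replicates 3 and 4 (0.381%), and 0 to 13 with 1 library left out. Those called higher numbered 2 with the block (1.26% of all genes) and 6 with replicates 1 and 2, for which the share of all genes called higher was not computed. Genes below 0 numbered 1 of the E-proteins and 6 of the inhibitors with replicates 3 and 4, and 5 of the corepressors with either subset. With 1 library left out they numbered 0 to 1 of the E-proteins, 7 to 12 of the upstream regulators, 8 to 14 of the coactivators and 3 to 5 of the corepressors.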

Other observations

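The genes described as targets did not all move. Among the MRF targets, 6 of the 38 tested did not pass with the block: Des, the intermediate filament desmin, Chrnb1, an acetylcholine receptor subunit, Dll1, a Notch ligand, Fgfr4, a growth factor receptor of myoblasts, Jam3, an adhesion molecule, and Nes, the filament protein nestin. Mean TPM was 829.5 against 783.8 for Des and 522.1 against 545.4 for Nes, control given before cold. Met, the receptor for hepatocyte growth factor that is found on quiescent and activated SCs, was higher in the cold, at 54.2 against 61.2 TPM (log2 fold change with the block 0.16, edgeR adjusted p = 0.0331). This call was lost without the block (edgeR adjusted p = 0.529) and in limma with the block. Among the MEF2 targets, the 5 that did not pass were Jun, Klf4, Klf6, Nr4a1 and Nfatc1, each of which encodes a transcription factor. Their log2 fold changes with the block ran from −0.27 (Nr4a1) to 0.23 (Klf6). The choice of these genes followed sight of their values.

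Pgam2, the muscle form of phosphoglycerate mutase, chosen after its value was seen, was the MEF2 target with an adjusted p under 0.05 without the block. Its mean was 103.0 TPM, against 52.4 TPM after cold (log2 fold change −0.99, edgeR adjusted p = 0.0194), just short of the fold threshold.

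By Dixon's criterion, 0 of 22 groups of 4 values (7 genes and 4 ratios in 2 groups) held an isolated value.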
